A study of Mus musculus with 17 samples.

Results

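The interferon response genes are a set of 43 mouse genes known to be induced by interferons, listed by symbol. Each was represented by the probe set that the platform annotation gives to that symbol alone and that has the highest mean over all 17 arrays. Of the 43 genes, 39 had such a probe set among the 17097 genes of the array, and Isg15, Bst2, Ifi44 and Tap1 were not analysed here. All 39 passed the filter on dim genes (a group mean above the median of all values, 3.83 on the log2 scale), and 36 of them lay above it in all 5 groups. The set was split into a type I class of 9 genes (Mx1, Mx2, Ifit1, Ifit2, Ifit3, Oas2, Oas3, Oasl1 and Oasl2), a gamma-type class of 8 genes (Gbp2, Gbp3, Irgm1, Irgm2, Igtp, Irf1, Iigp1 and Ifi47) and 22 measured genes of other roles.

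Interferons are secreted antiviral and immune signals. Type I interferons act through the receptor chains Ifnar1 and Ifnar2 and drive Stat2 and Irf9 to the interferon-stimulated response element. Interferon gamma, made mostly by T and NK cells, acts through Ifngr1 and Ifngr2 on genes with the gamma-activated site, among them Irf1. The gene sets overlap widely, since Irf1 and Irf9 read nearly the same element. In blood-forming tissue, interferons are known to push resting stem cells into division and to arm myeloid cells against microbes.

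Gene expression was measured on 17 Affymetrix arrays in 5 groups, all from wild-type C57/Bl6 donors. Splenocytes of leukemic recipients were profiled after transformation by Myc and Bcl2 of thymic DN2 cells (5 arrays, early progenitors of T cells), of LSK cells (marrow cells enriched for stem cells, 3 arrays) or of granulocyte-macrophage progenitors (GMP, 5 arrays). Recipients were 4 to 8 weeks old, received 4.5 to 6 Gy of whole-body irradiation, and were injected with the malignant cells. Healthy thymic DN2 cells and healthy marrow GMP gave 2 arrays each. The sort named for the leukemias is myeloid, by CD11b and Gr1, without CD3, CD4 or CD8, and no donor marker is named in it, so host myeloid cells of irradiated recipients are not set apart. Whether replicates come from separate mice is in no label, so p-values measure the spread between these samples, which may be technical.

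Some arrays stood apart from their labels or from their group. The 5 DN2-labelled leukemia arrays carried T-cell and not neutrophil transcripts: Cd3d, a T-cell receptor subunit, was at 12.17 to 12.55, and Camp, a neutrophil granule gene, at 3.63 to 4.98, against 12.70 to 14.25 for Camp in the LSK-labelled and GMP-labelled leukemia arrays. In the DN2-labelled leukemia arrays the 6 measured CD3 T-cell markers averaged 8.24 to 8.65, with 1 or 2 of them at or under 3.83. The 5 NK markers averaged 9.01 to 11.3 there. Itgam, which encodes the sorted marker CD11b, was at 7.17 and 7.38 in DN2-labelled leukemia arrays 1 and 3, and at 3.24 to 3.47 in arrays 2, 4 and 5. LSK-labelled leukemia arrays 2 and 3 had Mycn at 4.91 and 4.22, while array 1 and the other 10 leukemia arrays had it at 11.58 to 13.15. Counts of called members or median differences are therefore given with and without these arrays, and the groups are named by their labels. The values are log2 signal, on which a difference of 1 is a ratio of 2, and close to 3.83 the signal is background and differences are compressed. In bulk samples, fewer cells of a type and less RNA per cell cannot be told apart.

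The upstream sequences of 6 members are shown because they carry the interferon-stimulated response element, the gamma-activated site or both. Each element was found in both classes. RefSeq's promoter table for GRCm38.p6 held 28 of the 39 measured members, and the 250 bases before each start were searched on both strands for the core of the interferon-stimulated response element (GAAA, any 2 bases, GAAA) and for the gamma-activated site (TTC, any 3 bases, GAA). Capitals mark the matches, and the first motif on the reverse strand reads TTTC, any 2 bases, TTTC. All 6 genes lie on the plus strand.
Ifit1, chr19:34640775-34640823, 114 to 66 bases before the start: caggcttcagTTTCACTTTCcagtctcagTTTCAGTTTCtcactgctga
Ifit3, chr19:34583363-34583426, 166 to 103 bases before the start: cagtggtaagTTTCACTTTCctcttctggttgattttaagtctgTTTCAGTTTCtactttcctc
Gbp2, chr3:142620594-142620623, 69 to 40 bases before the start: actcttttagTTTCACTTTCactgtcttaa
Igtp, chr11:58199501-58199541, 55 to 15 bases before the start: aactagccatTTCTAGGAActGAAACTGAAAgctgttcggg
Irgm2, chr11:58214892-58214932, 85 to 45 bases before the start: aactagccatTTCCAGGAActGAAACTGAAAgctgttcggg
Irf1, chr11:53769914-53769942, 100 to 72 bases before the start: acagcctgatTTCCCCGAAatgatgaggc

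Ifit1 and Ifit3, 2 antiviral RNA-binding genes on chromosome 19, each carried a pair of response elements and no gamma-activated site in the window. Igtp and Irgm2, neighbouring GTPase genes on chromosome 11, carried both elements side by side, and their printed stretches of 41 bases differed at 1 base, which lies within the gamma-activated site. Gbp2 carried the response element alone, and Irf1 the gamma-activated site alone. The response element core was found for 11 of the 28 members (39.3%), against 936 of 27025 genes in the table (3.46%). The gamma-activated site was found for 6 of the 28 members (21.4%), against 2197 genes of the table (8.13%). By class, the response element was found for 3 of 6 type I genes and 5 of 7 gamma-type genes with an entry, and the gamma-activated site for 1 of 6 and 3 of 7. In none of the 35 member windows did a match of one motif overlap a match of the other, while Gbp3 and Irgm1 each held a pair of response element matches that overlap each other. These are matches of letters and were not tested as sites.

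The LSK-labelled group had the highest of the 5 group means for 35 of the 39 members, including all 9 of the type I class. The exceptions were Ifi47, Trim21 and Nlrc5, highest in the DN2-labelled leukemias, and Gbp3, highest in healthy GMP. How often the LSK-labelled group was highest over all genes was not counted. LSK-labelled array 2 was the highest of its group for 36 of 39 members. The lowest group mean fell in healthy GMP for 18 members, in the GMP-labelled leukemias for 14, in the DN2-labelled leukemias for 6 and in healthy DN2 cells for 1. Some of these lowest means, such as those of Mx1 and Mx2, lay at background and close to the next group. The heat map of all members shows the levels by array.

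**Figure D1:**
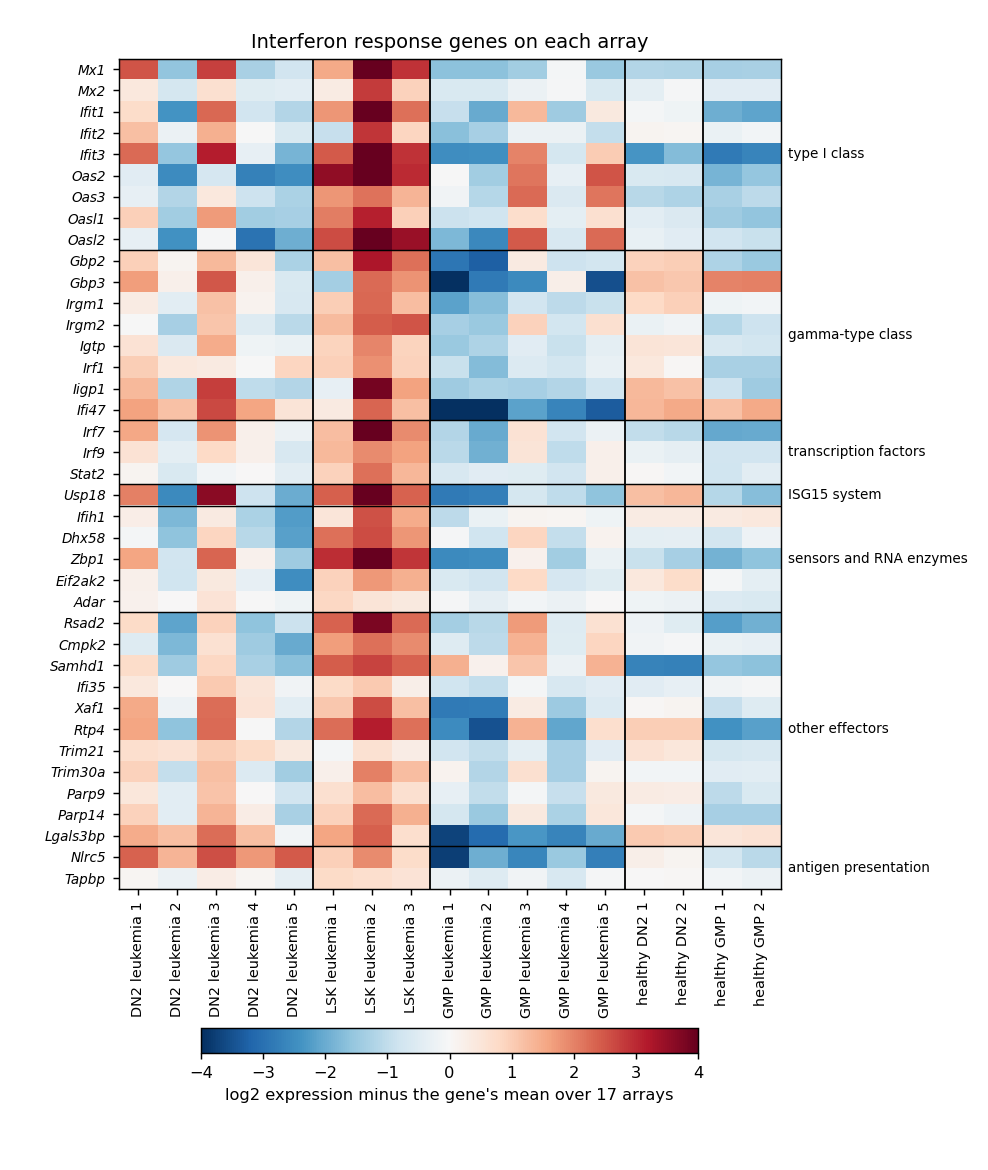
Heat map of the 39 measured members (rows, by class) over 17 arrays (columns, by group), as log2 signal minus each gene's mean over the arrays. The 3 LSK-labelled leukemia columns are high in most rows, with Gbp3, Ifit2, Iigp1 and Trim21 below their means in array 1. DN2-labelled leukemia arrays 1 and 3 are higher than the other 3 of their group in most rows. The gamma-type rows are mostly low in the GMP-labelled leukemias, with Irgm2 above its mean in arrays 3 and 5, Gbp2 in array 3 and Gbp3 in array 4.

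LSK-labelled and GMP-labelled leukemias were compared first, as both come from marrow cells and both carry neutrophil transcripts. Of the 39 members, 36 were higher in the LSK-labelled leukemias and 0 were lower, against 10.3% of the 11629 genes tested that were higher, 16.5% that were lower and 26.7% called in either direction (limma, all 17 arrays in 1 fit, Benjamini-Hochberg adjusted p under 0.05). The median member difference was 2.35, against -0.06 over all genes tested, and all 39 differences were positive. Those called comprised 7 of 9 type I genes, all 8 gamma-type genes, the 3 transcription factors Irf7, Irf9 and Stat2, all 5 sensors and RNA enzymes, Usp18, 10 of 11 other effectors, and both Nlrc5 and Tapbp. The members not called were Ifit2 with a difference of 1.82, Oas3 with 1.25 and Trim30a with 1.48.

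The 5 largest rises were those of Usp18, Zbp1, Ifi47, Mx1 and Lgals3bp. Usp18, which removes Isg15 from proteins and dampens signalling at the type I receptor, was at 8.35, 10.15 and 8.31 in the LSK-labelled leukemias and at 3.14, 3.22, 5.27, 4.94 and 4.34 in the GMP-labelled leukemias. The groups did not overlap, and GMP-labelled arrays 1 and 2 were below the median of all values. The Usp18 difference was 4.75 ± 1.13 (SE, adjusted p = 0.00641). Zbp1, a sensor of Z-form nucleic acids that can start necroptosis, was at 9.74, 11.23 and 9.66 in the LSK-labelled leukemias and at 4.24, 4.32, 6.97, 5.41 and 6.54 in the GMP-labelled leukemias. Its groups were also apart, with GMP-labelled arrays 3 and 5 the closest, and the difference was 4.71 ± 0.81 (SE, adjusted p = 0.000863). Mx1, a dynamin-like antiviral GTPase, was at 6.69, 10.34 and 8.06 in the LSK-labelled leukemias and at 3.55, 3.53, 3.81, 5.10 and 3.71 in the GMP-labelled leukemias. The GMP-labelled levels of Mx1 were near background except in array 4, and the difference was 4.42 ± 0.99 (SE, adjusted p = 0.00468).

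Ifi47, an interferon-inducible GTPase of the family that attacks pathogen vacuoles, was at 9.75, 11.70 and 10.57 in the LSK-labelled leukemias and at 4.66, 5.23, 7.25, 6.75 and 6.04 in the GMP-labelled leukemias. The lowest LSK-labelled array was well above the highest GMP-labelled array, and the difference was 4.69 ± 0.58 (SE, adjusted p = 7.82e-05). Lgals3bp, a secreted glycoprotein that binds galectins, was at 8.66, 9.50 and 7.76 in the LSK-labelled leukemias and at 3.40, 4.03, 4.76, 4.47 and 5.08 in the GMP-labelled leukemias. Its groups were likewise apart, and the difference was 4.29 ± 0.48 (SE, adjusted p = 3.55e-05). Among the other genes of fixed interest, the difference was 3.29 ± 0.95 for Ifit1 (SE, adjusted p = 0.0185) and 3.52 ± 1.05 for Oasl2 (SE, adjusted p = 0.022). Irf7, the factor that amplifies type I interferon production, differed by 3.09 ± 0.69 (SE, adjusted p = 0.00454). In the gamma-type class, Gbp2 differed by 3.68 ± 0.76 (SE, adjusted p = 0.00286), Igtp by 2.13 ± 0.41 (SE, adjusted p = 0.00187) and Irf1 by 2.07 ± 0.31 (SE, adjusted p = 0.000316).

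LSK-labelled array 2 carried much of the count and was the highest of its group for 36 of 39 members. Without it 20 members were called higher. Of all genes tested, 16.2% were called in either direction without it, against 26.7% with all arrays. The calls for Ifit1 (adjusted p = 0.116) and Oasl2 (0.102) were lost without that array, and that for Oasl2 (0.0615) also without array 3. With arrays 2 and 3, those of low Mycn, left out together, 1 LSK-labelled array remained, so only differences are given. The median member difference was then 1.81, against -0.13 over all genes tested. Usp18 differed by 4.17, Mx1 by 2.75 and Igtp by 1.78. Markers of other cell types moved with the comparison. The mean of the 9 measured monocyte and macrophage markers was 6.63 to 8.23 in the LSK-labelled leukemias and 6.01 to 6.82 in the GMP-labelled leukemias. The 5 measured B and plasma cell markers averaged 6.46 to 7.39 against 3.49 to 3.84, the 5 NK markers 5.78 to 7.62 against 3.13 to 3.41, and the 6 conventional dendritic cell markers 5.81 to 7.42 against 4.00 to 4.87. Within the conventional dendritic cell list, Zbtb46 and Xcr1 were at 2.80 to 4.09 in the leukemia arrays. Itgax, of the same list, was at 6.49, 9.12 and 8.48 in the LSK-labelled leukemias and at 4.10 to 5.26 in the GMP-labelled leukemias. The part of these cell types in the result was not tested.

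DN2-labelled leukemias were next compared with LSK-labelled leukemias. Of the 39 members, 23 were lower in the DN2-labelled leukemias and 0 were higher, against 19.1% of all genes tested that were lower, 28.3% that were higher and 47.4% called in either direction. The median member difference was -1.69, against 0.11 over all genes tested. The members that fell were 8 of the 9 type I genes, Irf7, Irf9 and Stat2, Usp18, all 5 sensors and RNA enzymes, Rsad2, Cmpk2 and Samhd1 among 11 other effectors, and Tapbp. In the gamma-type class 2 of 8 fell, Irgm1 and Irgm2. This comparison and the one before it share the 3 LSK-labelled arrays.

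Oas2, a synthetase whose oligoadenylate product activates RNase L, was at 5.75, 3.67, 5.52, 3.50 and 3.73 in the DN2-labelled leukemias and at 9.75, 10.17 and 9.19 in the LSK-labelled leukemias. DN2-labelled arrays 2, 4 and 5 were at background, and the groups were far apart, with a difference of -5.27 ± 0.79 (SE, adjusted p = 9.25e-05). Oasl2, a relative of the same family, was at 5.76, 3.66, 6.02, 3.11 and 4.13 in the DN2-labelled leukemias and at 8.69, 10.40 and 9.53 in the LSK-labelled leukemias. Again only arrays 1 and 3 of the DN2-labelled group stood well above background, and the difference was -5.00 ± 1.05 (SE, adjusted p = 0.00131). Rsad2, viperin, which makes a nucleotide that ends viral RNA chains, was at 8.75, 5.87, 8.91, 6.37 and 7.13 in the DN2-labelled leukemias and at 10.33, 11.76 and 10.27 in the LSK-labelled leukemias. No DN2-labelled array reached the LSK-labelled levels of Rsad2, and the difference was -3.38 ± 0.76 (SE, adjusted p = 0.00227).

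Samhd1, which breaks down nucleotides needed for reverse transcription, was at 10.28, 8.13, 10.39, 8.27 and 7.88 in the DN2-labelled leukemias and at 11.99, 12.25 and 11.92 in the LSK-labelled leukemias. Its groups were apart, with a difference of -3.07 ± 0.57 (SE, adjusted p = 0.000507). Ifit3, a partner of Ifit1 in binding viral RNA, was at 8.79, 4.99, 9.66, 6.19 and 4.66 in the DN2-labelled leukemias and at 8.96, 11.69 and 9.40 in the LSK-labelled leukemias. Here the groups overlapped, because DN2-labelled array 3 was above 2 of the LSK-labelled arrays, and the difference was -3.16 ± 1.23 (SE, adjusted p = 0.0469). The difference was -3.01 ± 0.95 for Ifit1 (SE, adjusted p = 0.0172), -2.85 ± 0.99 for Mx1 (SE, adjusted p = 0.0283) and -1.84 ± 0.69 for Irf7 (SE, adjusted p = 0.0397). The gamma-type genes of fixed interest did not pass the test: Gbp2 differed by -1.89 ± 0.76 (SE, adjusted p = 0.0533), Igtp by -1.03 ± 0.41 (SE, adjusted p = 0.0528) and Irf1 by -0.71 ± 0.31 (SE, adjusted p = 0.0729). Ifi47 differed by 0.21 and Gbp3 by -0.11, neither called.

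The count depended on which arrays entered. It was 13 without LSK-labelled array 2, where 39.4% of all genes tested were called. Leaving out LSK-labelled arrays 2 and 3 left 1 array of that group, so only differences are given. The median member difference was then -0.89, against 0.16 over all genes, with -4.15 for Oasl2, -2.93 for Rsad2 and -1.18 for Mx1. Without DN2-labelled arrays 1 and 3, those with Itgam signal, 30 members were lower, where 43.8% of all genes tested were called. The calls for Ifit1 (adjusted p = 0.103), Ifit3 (0.203), Mx1 (0.175) and Irf7 (0.254) were lost without LSK-labelled array 2. Those for Ifit3, Mx1 and Irf7 were also lost when LSK-labelled array 3 or DN2-labelled array 2, 4 or 5 was left out, with adjusted p between 0.0563 and 0.102. The 6 measured CD3 T-cell markers averaged 8.24 to 8.65 in the DN2-labelled leukemias and 4.18 to 4.70 in the LSK-labelled leukemias, and the 6 measured myeloid markers of the sort 5.37 to 6.50 against 11.2 to 12.8. Cell type and group cannot be told apart in this comparison.

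**Figure D2:**
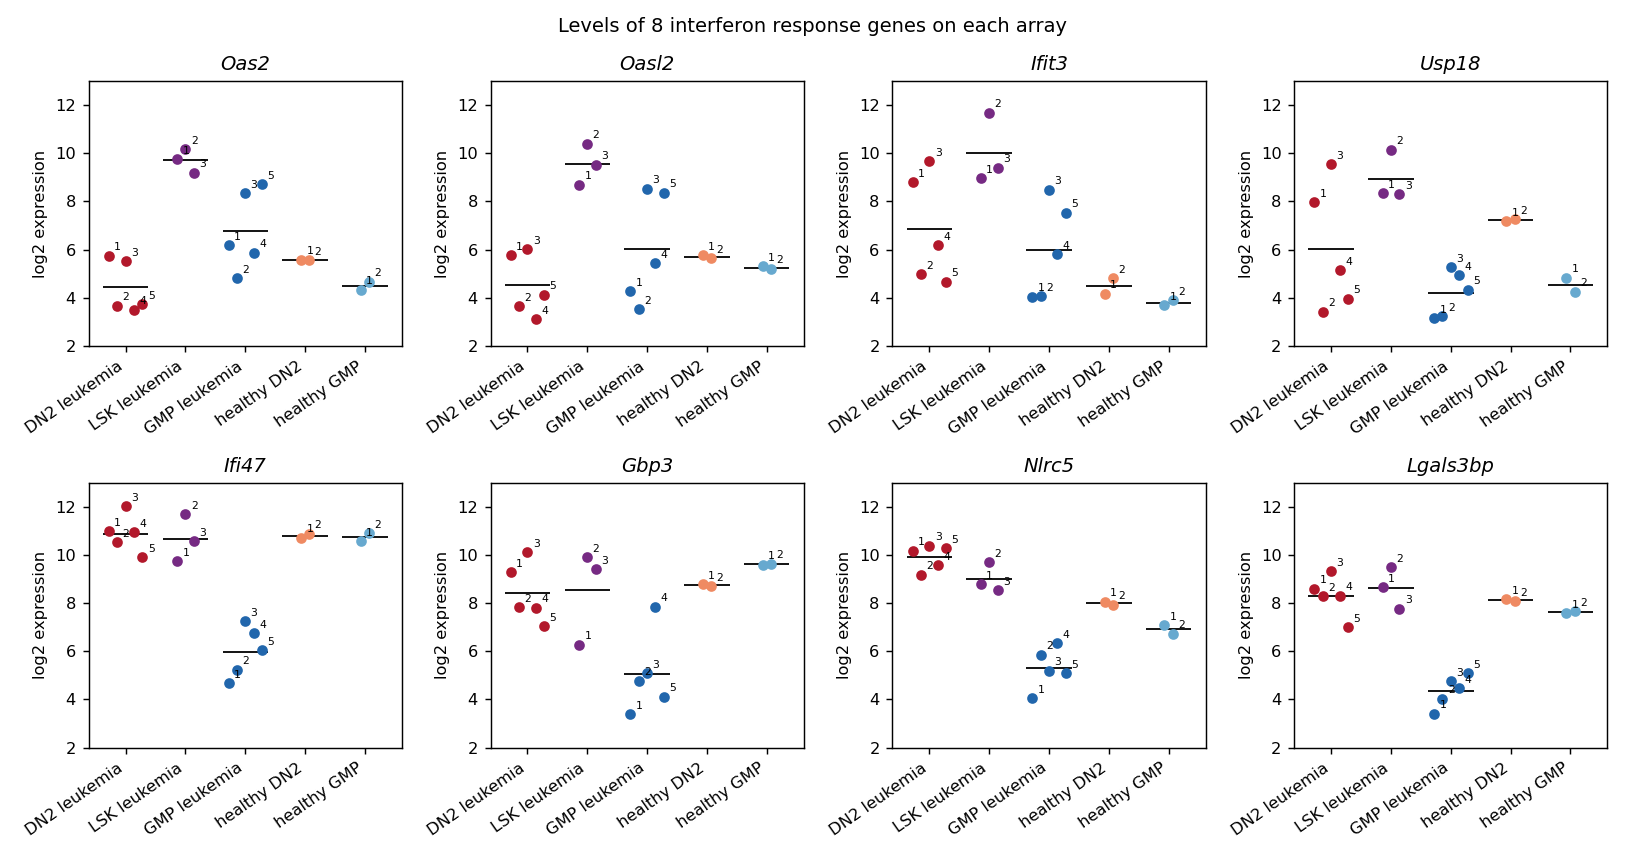
Log2 signal of 8 members on each array, with groups from left to right as DN2-labelled, LSK-labelled and GMP-labelled leukemias, healthy DN2 and healthy GMP, and black lines at group means. Oas2 and Oasl2 are low in the DN2-labelled leukemias, while Ifi47, Gbp3, Nlrc5 and Lgals3bp are low in the GMP-labelled leukemias and Usp18 and Ifit3 spread widely within the DN2-labelled group.

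Between DN2-labelled and GMP-labelled leukemias, gamma-type genes and Oas2 were called in opposite directions. Of the 39 members, 11 were higher and 2 lower in the DN2-labelled leukemias, against 21% and 18.8% of all genes tested, and the 13 called (33.3%) lie near the 39.8% called over all genes, so the count as a whole does not set the members apart. The 11 comprised 6 of 8 gamma-type genes (Gbp2, Gbp3, Irgm1, Igtp, Irf1 and Ifi47), Ifi35, Xaf1, Trim21, Lgals3bp and Nlrc5. In the type I class 0 of 9 genes were higher and Oas2 alone was lower. The median member difference was 0.77, against 0.03 over all genes tested.

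Ifi47 was at 10.98, 10.54, 12.02, 10.96 and 9.91 in the DN2-labelled leukemias, against 4.66 to 7.25 in the GMP-labelled leukemias. The lowest DN2-labelled array was above every GMP-labelled array, and the difference was 4.89 ± 0.50 (SE, adjusted p = 1.85e-06). Nlrc5, the transactivator of MHC class I genes, was at 10.17, 9.18, 10.38, 9.57 and 10.27 in the DN2-labelled leukemias and at 4.04, 5.85, 5.19, 6.34 and 5.08 in the GMP-labelled leukemias. Those groups did not overlap either, and the difference was 4.61 ± 0.38 (SE, adjusted p = 1.71e-07). Lgals3bp was at 8.59, 8.29, 9.33, 8.31 and 6.99 in the DN2-labelled leukemias, and its difference from the GMP-labelled levels given above was 3.95 ± 0.42 (SE, adjusted p = 2.6e-06).

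Gbp3, a guanylate-binding protein of the Gbp cluster on chromosome 3, was at 9.28, 7.84, 10.12, 7.82 and 7.03 in the DN2-labelled leukemias and at 3.38, 4.79, 5.09, 7.85 and 4.11 in the GMP-labelled leukemias. GMP-labelled array 4 reached the DN2-labelled levels of Gbp3 and the other 4 did not, and the difference was 3.38 ± 0.85 (SE, adjusted p = 0.0051). Xaf1, an antagonist of the apoptosis inhibitor XIAP, was at 10.07, 8.33, 10.77, 9.09 and 8.13 in the DN2-labelled leukemias and at 5.69, 5.73, 8.86, 7.08 and 7.98 in the GMP-labelled leukemias. The groups overlapped through GMP-labelled array 3, and the difference was 2.21 ± 0.63 (SE, adjusted p = 0.0119). Gbp2 differed by 1.78 ± 0.66 (SE, adjusted p = 0.0434), Igtp by 1.10 ± 0.36 (SE, adjusted p = 0.0237) and Irf1 by 1.36 ± 0.27 (SE, adjusted p = 0.000884).

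The 2 members that fell were Oas2 and Samhd1. Oas2 was at 6.17, 4.81, 8.35, 5.88 and 8.73 in the GMP-labelled leukemias, so only GMP-labelled array 2 lay within the range of the DN2-labelled levels and below some of them, and the difference was -2.35 ± 0.68 (SE, adjusted p = 0.0127). Samhd1 was at 10.97, 9.72, 10.68, 9.31 and 10.93 in the GMP-labelled leukemias, overlapping DN2-labelled arrays 1 and 3, and the difference was -1.33 ± 0.49 (SE, adjusted p = 0.0425). The other tests of fixed interest did not pass: Mx1 differed by 1.57 ± 0.86 (SE, adjusted p = 0.168), Ifit1 by 0.28 ± 0.82 (SE, adjusted p = 0.827), Oasl2 by -1.49 ± 0.91 (SE, adjusted p = 0.219) and Irf7 by 1.25 ± 0.60 (SE, adjusted p = 0.114).

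Without DN2-labelled arrays 1 and 3, 8 members were higher and 5 lower, and the median difference was 0.07. Of all genes tested, 35.7% were called in that fit. The calls for Gbp2 (adjusted p = 0.236), Igtp (0.167) and Xaf1 (0.104) were lost there. The Gbp2 call was also lost without any 1 of DN2-labelled arrays 1 to 4 or GMP-labelled arrays 1 or 2 (adjusted p = 0.0639 to 0.111). The Igtp call was lost without DN2-labelled array 1 or GMP-labelled array 1 or 2 (adjusted p = 0.0526 to 0.061), and the Samhd1 call without DN2-labelled array 2, 4 or 5 or GMP-labelled array 1, 3 or 5 (0.0868 to 0.109). Markers of several cell types moved with this comparison. The 5 NK markers averaged 9.01 to 11.3 in the DN2-labelled leukemias and 3.13 to 3.41 in the GMP-labelled leukemias. The 6 measured CD3 T-cell markers averaged 8.24 to 8.65 against 4.28 to 4.55. The 6 measured myeloid markers of the sort averaged 5.37 to 6.50 against 11.76 to 12.51. Cell type and group cannot be told apart here either, and the part of these cell types in the result was not tested.

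**Figure D3:**
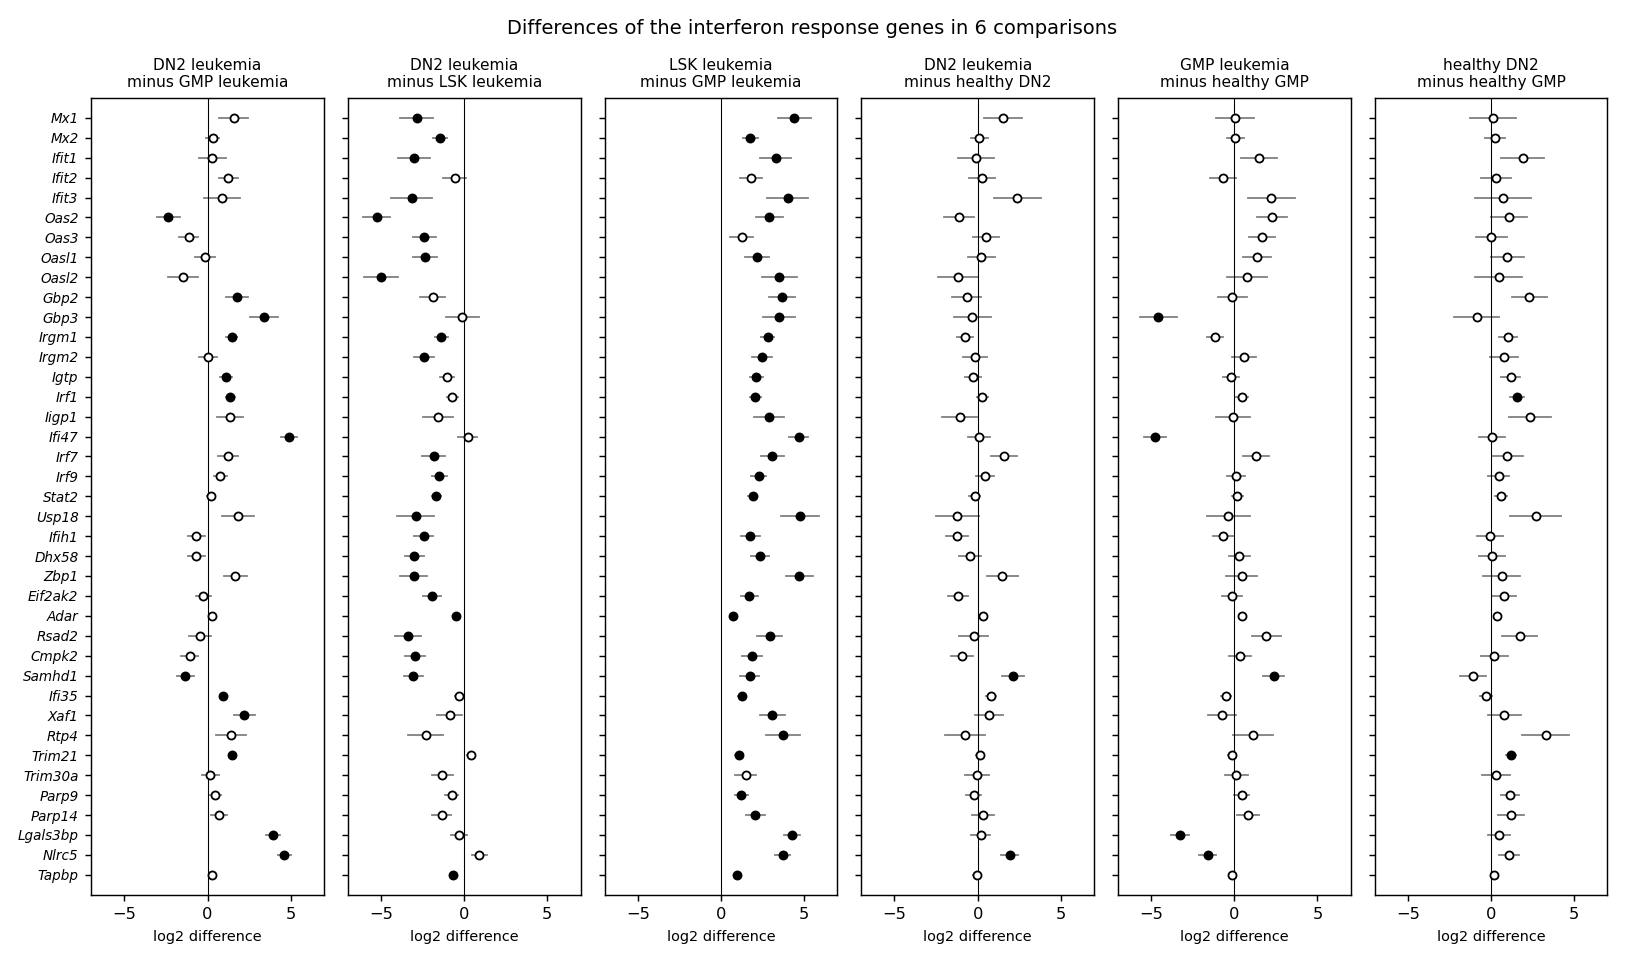
Log2 difference of each of the 39 members (rows) in the 6 pairwise comparisons (panels), with bars of 1 SE and filled points at an adjusted p under 0.05. LSK-labelled minus GMP-labelled leukemia has 36 filled points to the right and DN2-labelled minus LSK-labelled leukemia 23 to the left, while the panels with healthy cells hold 2 to 5 filled points each.

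The balance of the classes was followed by array, as the mean of each class after centring every gene on its own mean over the 17 arrays. The type I mean was -0.40 ± 1.33 in the DN2-labelled leukemias (SD, n = 5), 2.50 ± 1.11 in the LSK-labelled leukemias (SD, n = 3) and -0.30 ± 1.11 in the GMP-labelled leukemias (SD, n = 5). The gamma-type mean was 0.41 ± 0.88 in the DN2-labelled leukemias, 1.52 ± 1.01 in the LSK-labelled leukemias and -1.51 ± 0.73 in the GMP-labelled leukemias (SD, same n). Type I means of the DN2-labelled and GMP-labelled leukemias thus differed by less than their spread. Their gamma-type means differed by more than their spread, with arrays at -0.45 to 1.67 in DN2-labelled and -2.39 to -0.81 in GMP-labelled leukemias. Gamma-type genes differed unequally between these groups, from 0.04 for Irgm2 to 4.89 for Ifi47, with Gbp3 at 3.38 and a median of 1.40. Healthy DN2 cells had 0.77 and 0.76 for the gamma-type class and -0.70 and -0.66 for the type I class. Healthy GMP had -0.27 and -0.29 for the gamma-type class and -1.36 and -1.29 for the type I class.

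In the DN2-labelled leukemias arrays 1 and 3 had type I means of 0.78 and 1.29, against -1.55 to -1.20 in arrays 2, 4 and 5, and gamma-type means of 0.93 and 1.67, against -0.45 to 0.09. Type I minus gamma-type was negative on all 5 DN2-labelled leukemia arrays, at -1.35 to -0.14. It was positive on all 3 LSK-labelled leukemia arrays, at 0.52 to 1.25, and on all 5 GMP-labelled leukemia arrays, at 0.48 to 1.83. It was also negative in healthy DN2 cells, at -1.48 and -1.43, and in healthy GMP, at -1.09 and -0.998. The values on the LSK-labelled and GMP-labelled leukemia arrays therefore did not overlap those of the other 3 groups. The sign itself depends on the centring, which used each gene's mean over these same arrays, so it has no meaning of its own. The part in this gap of Ifi47 and Gbp3, the gamma-type genes that differed most between DN2-labelled and GMP-labelled leukemias, was not tested. The classes were defined with earlier results of these data known, and the values are given as a description with no test.

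**Figure D4:**
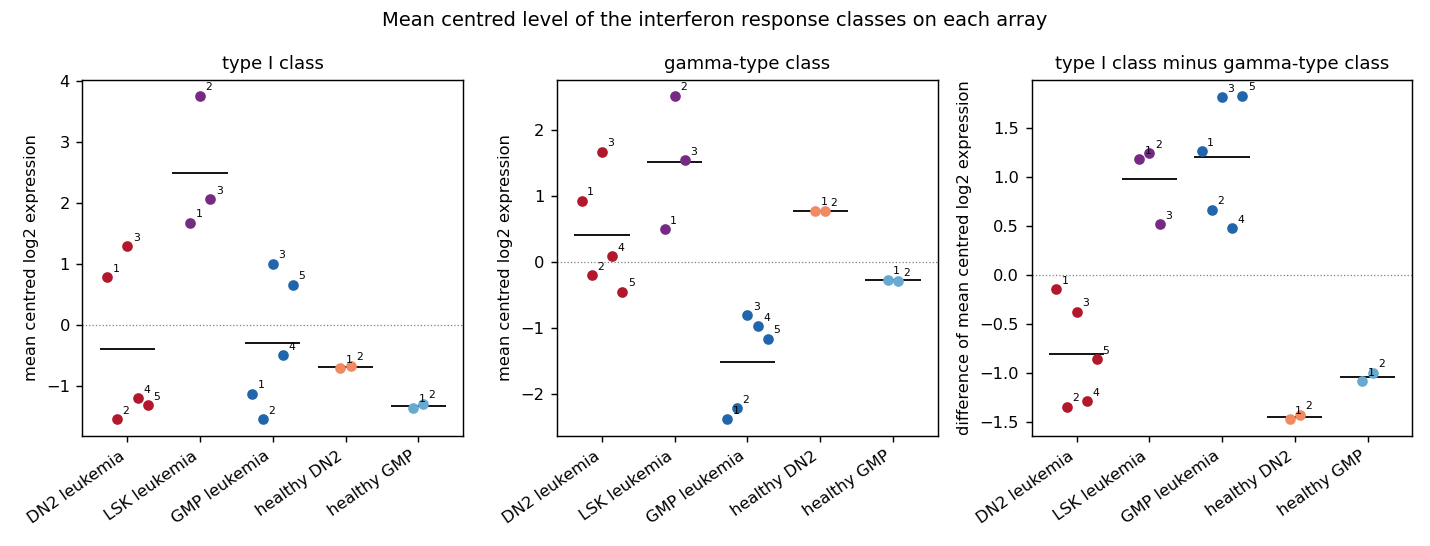
Mean centred log2 level of the type I class, of the gamma-type class, and their difference, for each array, with groups from left to right as DN2-labelled, LSK-labelled and GMP-labelled leukemias, healthy DN2 and healthy GMP, and black lines at group means. The difference is above 0 on all 8 LSK-labelled and GMP-labelled leukemia arrays and below 0 on the other 9 arrays.

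Within a leukemia group the members varied more between arrays than most genes did. The median range of a member over the arrays was 2.51 in the DN2-labelled leukemias, 1.33 in the LSK-labelled leukemias and 1.94 in the GMP-labelled leukemias, against 0.665, 0.618 and 0.786 for the median gene tested. In healthy DN2 cells it was 0.107, against 0.103 for the median gene, and in healthy GMP 0.137 against 0.161. DN2-labelled arrays 1 and 3 were the highest pair of their group for 33 of 39 members, including all 9 type I genes and 7 of 8 gamma-type genes. GMP-labelled arrays 3 and 5 were the highest pair of theirs for 26 of 39.

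Usp18 showed the widest spread of these, at 7.96, 3.43, 9.56, 5.13 and 3.96 in the DN2-labelled leukemias, from background in array 2 to above most LSK-labelled arrays in array 3. Rtp4, a chaperone for receptors that also binds viral RNA, was at 6.34, 5.36, 10.22, 6.77 and 9.53 in the GMP-labelled leukemias, high in arrays 3 and 5. Trim21, a cytosolic antibody receptor, spread least in the DN2-labelled leukemias, at 9.18, 9.06, 9.47, 9.26 and 8.90. In arrays 1 and 3 of the DN2-labelled group other markers were high too: the NK list averaged 11.2 and 11.3 (9.01 to 11.3 over the 5 arrays), the conventional dendritic cell list 6.55 and 5.49, and the B and plasma cell list 4.96 and 5.39. Ncr1, of the NK list, was at 9.56 and 9.95 in those arrays and at 3.40 to 4.50 in the other 3. The NK list as a whole still averaged 9.01, 9.76 and 9.14 in arrays 2, 4 and 5, so Ncr1 does not stand for the list. Whether cells of these types carried the members' signal was not tested.

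Members moved together across arrays. Over the 17 arrays, which share group differences, the median Pearson correlation was 0.82 between type I genes (36 pairs), 0.73 between gamma-type genes (28 pairs) and 0.66 between a gene of each class (72 pairs). After group means were removed over the 13 leukemia arrays these medians were 0.77, 0.68 and 0.73, so gamma-type genes were not more alike among themselves than with type I genes on that measure. Without DN2-labelled arrays 1 and 3, a check added after the data were seen, they were 0.83, 0.72 and 0.66 over 15 arrays and 0.72, 0.61 and 0.66 over 11 leukemia arrays. Zbp1 was the member most like the mean of the others over 17 arrays (r = 0.97), and Gbp3 (0.44), Nlrc5 (0.51) and Ifi47 (0.53) were least like it. Where a member had another probe set with a group mean of at least 6 (10 probe sets of 8 genes), each followed the chosen one with r over 0.5. Close relatives among the Ifit, Oas, Gbp and Irgm families may share signal on the array.

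The 8 other genes most like the mean of the members over the 17 arrays were Gm9706 (r = 0.93), Trim30d (0.92), Itgax (0.92), Gm5547 (0.91), Slfn8 (0.89), Trafd1 (0.89), Elmo2 (0.88) and Ccng2 (0.87). Itgax, the integrin CD11c of dendritic cells and other myeloid cells, was at 8.30, 3.66, 8.22, 4.79 and 3.71 in the DN2-labelled leukemias, at 6.49, 9.12 and 8.48 in the LSK-labelled leukemias and at 4.10 to 5.26 in the GMP-labelled leukemias. It was high in the same DN2-labelled arrays, 1 and 3, as the members. Slfn8, of the Schlafen family, was at 8.81, 6.22, 9.23, 7.30 and 4.82 in the DN2-labelled leukemias and at 8.70, 9.91 and 9.17 in the LSK-labelled leukemias.

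Set against healthy cells of the same origin, few members were called in the leukemias. With 2 arrays in each healthy group, a member not called is not shown to be unchanged. In DN2-labelled leukemias, 2 of 39 members were higher than in healthy DN2 cells and 0 were lower, against 9.48% of genes tested that were higher, 13.7% that were lower and 23.2% called in either direction. The median member difference was -0.04, against 0.01 over all genes. Without DN2-labelled arrays 1 and 3 the balance turned, with 1 member higher and 4 lower and a median of -0.37. Of all genes tested, 21.5% were called there. With array weights 7 members were higher and 5 lower, beside 50.6% of all genes called. The 2 that rose were Samhd1, by 2.12 ± 0.65 (SE, adjusted p = 0.028), and Nlrc5, by 1.92 ± 0.50 (SE, adjusted p = 0.0118). Nlrc5 was at 9.18 to 10.38 in the leukemias and at 8.06 and 7.93 in healthy DN2 cells, with no overlap, and Samhd1 at 7.88 to 10.39 against 6.88 and 6.86. Markers moved with this comparison: the NK list averaged 9.01 to 11.3 in the leukemias and 4.72 in healthy DN2 cells, the CD3 T-cell list 8.24 to 8.65 against 5.87 to 5.94, and the 4 measured plasmacytoid dendritic cell markers 4.79 to 5.18 against 6.24 to 6.39. Their part in the result was not tested.

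None of the genes of fixed interest passed the test against healthy DN2 cells. The difference was 1.51 ± 1.14 for Mx1 (SE, adjusted p = 0.395), -0.12 ± 1.09 for Ifit1 (SE, adjusted p = 0.963), -1.17 ± 1.20 for Oasl2 (SE, adjusted p = 0.557) and 1.59 ± 0.79 for Irf7 (SE, adjusted p = 0.175). It was -0.64 ± 0.87 for Gbp2 (SE, adjusted p = 0.674), -0.29 ± 0.47 for Igtp (SE, adjusted p = 0.731) and 0.29 ± 0.36 for Irf1 (SE, adjusted p = 0.637). The Nlrc5 call was lost without either healthy array (adjusted p = 0.0831 and 0.109), and that of Samhd1 without either healthy array (0.157 and 0.162), without DN2-labelled array 1 (0.0502) and without arrays 1 and 3 together (0.0567). A second Samhd1 probe set averaged 7.64 in the DN2-labelled leukemias and 7.56 in healthy DN2 cells, and with the mean of both probe sets the adjusted p was 0.294.

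In GMP-labelled leukemias, 1 of 39 members was higher than in healthy GMP and 4 were lower, against 8.08% and 13.1% of all genes tested and 21.2% called in either direction, so the share of members called was not above the background. The median member difference was 0.11, against -0.12 over all genes. In the type I class 8 of 9 differences were positive, with a median of 1.355, and 0 were called. The gamma-type median was -0.16, with Ifi47 and Gbp3 far below it. Ifi47 was at 4.66 to 7.25 in the leukemias and at 10.56 and 10.90 in healthy GMP, a fall of the whole group, with a difference of -4.74 ± 0.66 (SE, adjusted p = 0.000163). Gbp3 was at 3.38 to 7.85 in the leukemias against 9.60 and 9.64 in healthy GMP, with a difference of -4.58 ± 1.12 (SE, adjusted p = 0.0102). Neither gene's groups overlapped. Lgals3bp was at 3.40 to 5.08 in the leukemias against 7.58 and 7.66 in healthy GMP, with a difference of -3.27 ± 0.55 (SE, adjusted p = 0.000821), and Nlrc5 at 4.04 to 6.34 against 7.09 and 6.73, with a difference of -1.61 ± 0.50 (SE, adjusted p = 0.0338).

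Samhd1 rose, to 9.31 to 10.97 in the GMP-labelled leukemias against 8.01 and 7.92 in healthy GMP, with a difference of 2.36 ± 0.65 (SE, adjusted p = 0.0191). Its second probe set averaged 8.95 in the leukemias and 7.94 in healthy GMP, and with the mean of both probe sets the call was lost (adjusted p = 0.0963). The myeloid markers averaged 11.76 to 12.51 in the leukemias and 7.91 to 7.93 in healthy GMP, and their part in the result was not tested. The genes of fixed interest were not called: the difference was 0.06 ± 1.14 for Mx1 (SE, adjusted p = 0.976), 1.49 ± 1.09 for Ifit1 (SE, adjusted p = 0.355), 0.77 ± 1.20 for Oasl2 (SE, adjusted p = 0.702) and 1.31 ± 0.79 for Irf7 (SE, adjusted p = 0.257). It was -0.11 ± 0.87 for Gbp2 (SE, adjusted p = 0.945), -0.20 ± 0.47 for Igtp (SE, adjusted p = 0.808) and 0.46 ± 0.36 for Irf1 (SE, adjusted p = 0.386). With either healthy GMP array left out the calls for Gbp3 (adjusted p = 0.0869 and 0.093), Samhd1 (0.118 and 0.142) and Nlrc5 (0.216 and 0.139) were lost, and that for Nlrc5 also without GMP-labelled array 1, 3 or 5 (0.0502 to 0.0639). Ifi47 and Lgals3bp were called in each of these fits, which covers each array left out in turn.

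The change from healthy cells differed between the DN2 and GMP origins for 3 members. These were 3 of 39 higher and 0 lower in the test of the difference between the changes, against 6.39% and 6.28% of all genes tested and 12.7% called in either direction, so the count does not set the members apart. The excess of the DN2 change over the GMP change was 4.82 ± 0.94 for Ifi47 (SE, adjusted p = 0.00306), 3.53 ± 0.71 for Nlrc5 (SE, adjusted p = 0.00377) and 3.45 ± 0.78 for Lgals3bp (SE, adjusted p = 0.00864). Ifi47 levels in DN2-labelled leukemias (mean 10.88) were close to those of healthy DN2 cells (10.80) and of healthy GMP (10.73), and of these 4 groups the GMP-labelled leukemias (5.99) stood apart. Lgals3bp followed the same order, with means of 8.30, 8.12 and 7.62 in the first 3 groups and 4.35 in the GMP-labelled leukemias. Nlrc5 moved apart in both directions, upward with DN2 origin and downward with GMP origin. Without DN2-labelled arrays 1 and 3, 3 members were higher and 1 lower in this test, with a median of -0.96 against -0.17 with all arrays. Of all genes tested, 12.9% were called in that fit. Gbp3 had an excess of 4.25 ± 1.58 that did not pass the test (SE, adjusted p = 0.099).

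The other genes of fixed interest gave no call for that difference. It was 1.45 ± 1.61 for Mx1 (SE, adjusted p = 0.616), -1.61 ± 1.54 for Ifit1 (SE, adjusted p = 0.552), -1.94 ± 1.70 for Oasl2 (SE, adjusted p = 0.514) and 0.28 ± 1.12 for Irf7 (SE, adjusted p = 0.905). For the gamma-type genes it was -0.53 ± 1.23 for Gbp2 (SE, adjusted p = 0.832), -0.09 ± 0.67 for Igtp (SE, adjusted p = 0.948) and -0.17 ± 0.50 for Irf1 (SE, adjusted p = 0.867).

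Between the healthy populations, 2 of 39 members were higher in DN2 cells than in GMP and 0 were lower, against 5.78% and 5.42% of all genes tested and 11.2% called in either direction. Irf1, the factor that carries the gamma response to secondary targets, was at 10.18 and 9.81 in healthy DN2 cells and at 8.46 and 8.45 in healthy GMP, with a difference of 1.54 ± 0.42 (SE, adjusted p = 0.0292). Trim21 was at 9.08 and 8.94 in healthy DN2 cells and at 7.81 and 7.87 in healthy GMP, with a difference of 1.17 ± 0.30 (SE, adjusted p = 0.0174). Both pairs were apart, and 35 of 39 differences were positive, with a median of 0.70 against -0.06 over all genes. The genes of fixed interest not called were Mx1 with 0.12, Ifit1 with 1.90, Oasl2 with 0.45, Irf7 with 0.97, Gbp2 with 2.31 and Igtp with 1.19. Without any 1 of the 4 healthy arrays 0 members were called, with adjusted p between 0.0877 and 0.21 for Irf1 and between 0.0792 and 0.131 for Trim21.

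Among the ligands, interferon gamma was the one measured well above background. Of 15 ligand genes listed, 9 had a probe set and 2, Ifng and Ifna5, passed the filter, and no value of a type I ligand was above 4.30. Ifng was at 11.04, 9.50, 9.88, 9.32 and 10.79 in the DN2-labelled leukemias, at 5.10, 7.47 and 5.13 in the LSK-labelled leukemias and at 2.59 to 2.79 in the GMP-labelled leukemias. These 3 groups did not overlap. The NK marker means had the same order, and the CD3 T-cell marker means were also highest in the DN2-labelled leukemias, at 8.24 to 8.65. The highest group mean fell in the LSK-labelled leukemias for 35 of the 39 members and for 6 of 8 gamma-type genes. The source of the Ifng signal and its bearing on the members were not tested. The Ifng difference was 7.41 ± 0.42 between DN2-labelled and GMP-labelled leukemias (SE, adjusted p = 3.08e-09) and 4.21 ± 0.49 between DN2-labelled and LSK-labelled leukemias (SE, adjusted p = 9.27e-06). Healthy DN2 cells had 5.66 and 5.77, and healthy GMP 3.00 and 2.59. Ifnb1, a type I ligand, was at 3.10 to 4.30 over all 17 arrays, with the highest value in GMP-labelled array 4.

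Receptor chains moved in different directions. Ifngr2, the signalling chain of the gamma receptor, was at 4.43, 3.45, 2.94, 3.05 and 3.92 in the DN2-labelled leukemias, at 7.25, 9.18 and 8.78 in the LSK-labelled leukemias and at 8.01, 7.57, 8.06, 6.90 and 7.73 in the GMP-labelled leukemias. All 5 DN2-labelled arrays were near background, with a difference of -4.85 ± 0.42 from the LSK-labelled leukemias (SE, adjusted p = 6.63e-07) and of -4.10 ± 0.37 from the GMP-labelled leukemias (SE, adjusted p = 4.77e-07). Ifngr1, the chain that binds the ligand, was at 10.95, 10.56, 10.58, 10.48 and 11.99 in the DN2-labelled leukemias and at 9.27 to 9.96 in the GMP-labelled leukemias, with a difference of 1.37 ± 0.30 (SE, adjusted p = 0.00184). Ifnar1 was at 8.37 to 9.03 in the DN2-labelled leukemias against 6.79 to 7.61 in the GMP-labelled leukemias. Healthy DN2 cells also had Ifngr2 below healthy GMP, at 4.61 and 3.99 against 6.87 and 6.89.

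**Figure D5:**
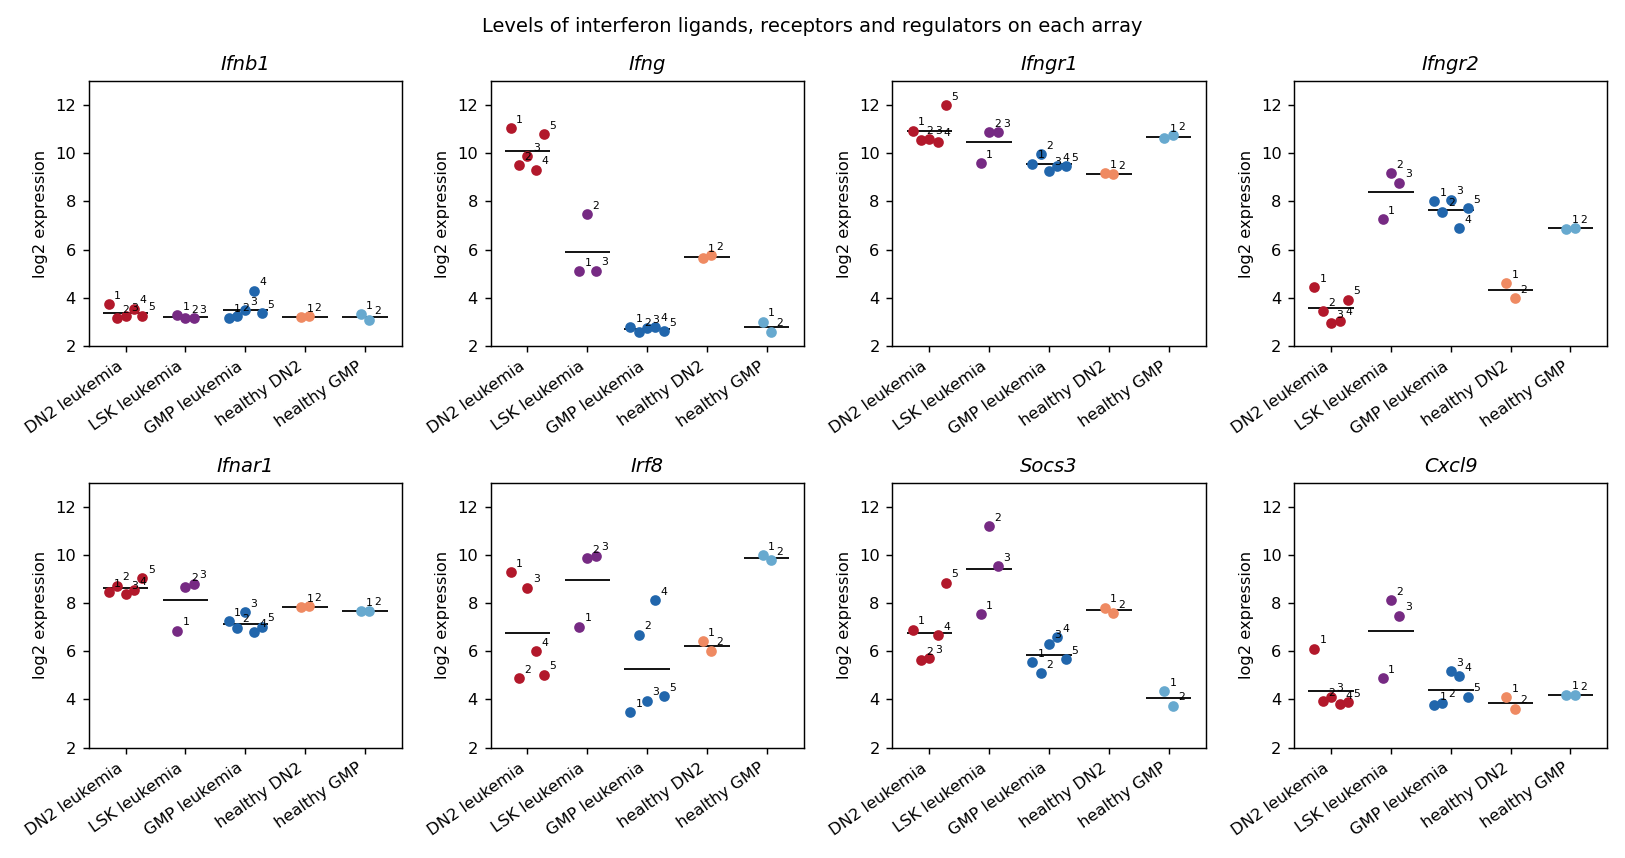
Log2 signal of 8 ligands, receptors, regulators and a target chemokine on each array, with groups from left to right as DN2-labelled, LSK-labelled and GMP-labelled leukemias, healthy DN2 and healthy GMP, and black lines at group means. Ifng is highest in the DN2-labelled leukemias, where Ifngr2 is near background, and Ifnb1 stays near background on all 17 arrays.

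The remaining pathway genes were counted from fixed lists of the same fit. Of 34 further response genes listed, 26 were tested. Between LSK-labelled and GMP-labelled leukemias 14 of them were higher and 1 lower, between DN2-labelled and LSK-labelled leukemias 1 was higher and 13 lower, and between DN2-labelled and GMP-labelled leukemias 9 were higher and 6 lower, with the background shares given above. Their direction thus followed that of the members in the first and second comparisons. Ifitm3, a membrane protein that blocks viral entry, was at 9.67, 3.39, 5.44, 4.16 and 3.38 in the DN2-labelled leukemias, at 11.20, 13.63 and 13.31 in the LSK-labelled leukemias and at 9.21 to 12.56 in the GMP-labelled leukemias. It was near background in 3 of 5 DN2-labelled arrays and high in array 1. Cxcl9, a chemokine gene induced mainly by interferon gamma, was at 6.11, 3.93, 4.11, 3.80 and 3.87 in the DN2-labelled leukemias and at 4.88, 8.13 and 7.49 in the LSK-labelled leukemias, with a difference of -2.47 ± 0.66 (SE, adjusted p = 0.00672).

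Irf8, a factor of dendritic cell and monocyte development that also answers to interferon gamma, was at 9.29, 4.89, 8.64, 5.99 and 5.02 in the DN2-labelled leukemias, at 7.02, 9.88 and 9.98 in the LSK-labelled leukemias and at 3.46, 6.69, 3.95, 8.11 and 4.14 in the GMP-labelled leukemias. Irf8 was high in DN2-labelled arrays 1 and 3, as the members were, and in GMP-labelled arrays 2 and 4, which were not the arrays highest for the members. Socs3, a feedback inhibitor of cytokine receptors, was at 6.89, 5.62, 5.71, 6.68 and 8.85 in the DN2-labelled leukemias and at 7.55, 11.20 and 9.53 in the LSK-labelled leukemias, with a difference of -2.68 ± 0.75 (SE, adjusted p = 0.0091). The groups overlapped through DN2-labelled array 5. Against healthy cells of the same origin, 3 of the 26 further response genes were higher and 5 lower in DN2-labelled leukemias, and 5 were higher and 5 lower in GMP-labelled leukemias, beside the background shares given above. Slfn2 and Ifi27l2a were higher in both, and no gene of the list was lower in both. Slfn2, which keeps T cells and monocytes quiescent in mouse, rose by 4.48 ± 0.44 in DN2-labelled leukemias (SE, adjusted p = 2.97e-06) and by 3.83 ± 0.44 in GMP-labelled leukemias (SE, adjusted p = 2.79e-05). Ifi27l2a rose by 3.24 ± 0.87 (SE, adjusted p = 0.0146) and by 5.66 ± 0.87 (SE, adjusted p = 0.000384) in the same comparisons.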

How the data were processed

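Gene expression was profiled from 300 ng of total RNA per array with a 3' IVT Express kit, per the labels' protocols. The deposited values are log2 signals per probe set, made by the authors with RMA and affy, per the submitters' processing notes. Their versions, and whether all arrays were normalized together, have no statement in the sources used here. No detection calls come with the 45141 probe sets, of which 104 controls were left out, and array medians were 3.80 to 3.86.

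The platform annotation gave 28898 probe sets 1 symbol and 551 several; 28689 were matched to current names by Entrez identifier. The probe set of highest mean stood for each of 17097 genes. Genes with a group mean above 3.83 (11629) entered limma 3.58.1 in R 4.3.3 (lmFit, eBayes, 1 mean per group, all 17 arrays), with p-values two-sided, adjusted per comparison by Benjamini-Hochberg and called under 0.05. Sequences were handled in Python 3.11.15.

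Members, classes and lists were chosen with earlier results of these data known. Any member may be named, with the difference, SE and adjusted p for the 5 called members of largest rise and of largest fall per comparison and for Mx1, Ifit1, Oasl2, Irf7, Gbp2, Igtp and Irf1 throughout. Other genes named come from the fixed pathway and marker lists, from the 8 most alike in pattern, or, as Mycn, from arrays that stood apart. Alternatives covered the filter, scaling, probe set choice, variance model, arrays entered, array weights, a Y-linked covariate and the replicate block.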

Additional observations from a re-analysis of the deposited data

Results flagged for a closer look

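Among 78 groups of 5 arrays checked for a value far from the rest, 2 had one, and chance gives such a value in about 1 in 20 groups. Mx1 was at 5.10 in GMP-labelled leukemia array 4, while the next highest of the group was at 3.81 and the lowest at 3.53. Eif2ak2, the double-stranded RNA kinase, was at 6.99 in GMP-labelled leukemia array 3, with the next highest at 5.69 and the lowest at 5.41. The change from healthy cells differed between the DN2 and GMP origins by a tested 4.82 for Ifi47, 3.45 for Lgals3bp and 3.53 for Nlrc5.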

How the results depend on the processing

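Counts of called members moved by over 1.5 times in these settings. For DN2-labelled minus LSK-labelled leukemia the count was 13, and for LSK-labelled minus GMP-labelled leukemia 20, without LSK-labelled array 2. Of all genes tested, 39.4% and 16.2% were called there. For DN2-labelled leukemia minus healthy DN2 it was 1 with the mean of probe sets, with only the arrays compared and with the replicate block. It was 12 with array weights and 5 without DN2-labelled arrays 1 and 3. The share of all genes called was 50.6% with array weights and 21% to 27.1% in these other settings. Array weights gave 20 for GMP-labelled leukemia minus healthy GMP, 16 for healthy DN2 minus healthy GMP and 12 for the difference between the changes. Of all genes tested, 52.1%, 46.7% and 45.1% were called there, in that order. With only the arrays compared, healthy DN2 minus healthy GMP gave 29, beside 45.8% of all genes called. Leaving out 1 array gave 10 to 14 for DN2-labelled minus GMP-labelled leukemia, 13 to 30 for DN2-labelled minus LSK-labelled (30 without DN2-labelled array 3), 20 to 36 for LSK-labelled minus GMP-labelled, 0 to 3 and 2 to 7 for the DN2 and GMP changes from healthy cells, 0 for the healthy pair and 3 to 4 for the difference between the changes. The cause was not tested.

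Of the 41 called differences named, 0 changed sign in any setting. Lost calls numbered 8 with only the arrays compared, 6 with the replicate block, 4 without the filter, 3 with the mean of probe sets and 2 with array weights. Without DN2-labelled arrays 1 and 3, 4 of the 23 called differences concerned were lost. Leaving out 1 array lost up to 6, of 19 without LSK-labelled array 2, and 5 of 10 without either healthy GMP array. Leaving out LSK-labelled arrays 2 and 3 left 1 array of that group, so no count is given. Signs turned in uncalled differences alone. Ifit1, DN2-labelled minus GMP-labelled, was -0.72 with array weights, -0.90 without DN2-labelled arrays 1 and 3, and -0.36 to 0.82 leaving out 1 array. Against healthy DN2 cells, Ifit1 was 0.0007 with quantile normalization repeated, 0.34 with the Y-linked covariate and -0.76 to 0.41 leaving out 1 array, and Mx1 was -0.0216 without DN2-labelled arrays 1 and 3. For GMP-labelled leukemia minus healthy GMP, Mx1 was -0.0691 with weights and -0.22 to 0.17 leaving out 1 array, Gbp2 was 0.62 with weights, 0.11 with the covariate and -0.57 to 0.34, and Igtp 0.0673 with weights. In the difference between the changes, Irf7 was -0.32 with weights, -0.49 without DN2-labelled arrays 1 and 3 and -0.0451 to 0.60 leaving out 1 array, Mx1 was -0.0858 without those arrays, and Igtp was -0.41 to 0.11 and Irf1 -0.40 to 0.009 leaving out 1 array.

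With the replicate block, members called were 12, 16, 28, 1, 4, 2 and 3 over the 7 comparisons, starting with DN2-labelled minus GMP-labelled leukemia, then DN2-labelled minus LSK-labelled and LSK-labelled minus GMP-labelled. Of all genes tested, 39.5%, 42.8%, 22%, 21%, 20.8%, 10.5% and 12.1% were called, in the same order. Deviations from group means correlated at -0.30 to 0.25 between same-numbered arrays and at -0.24 to 0.34 between other arrays. In a group of 2 arrays the deviations mirror each other, so this cannot settle whether a number marks a shared batch. No label says what the numbers mean. Group sizes of 2 to 5 arrays and background signal near 3.83 limit all differences.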
